A study of Mus musculus with 17 samples.

Results

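The 10 genes described here encode the transforming growth factor beta (TGF-beta) ligands Tgfb1, Tgfb2 and Tgfb3, the receptors Tgfbr1, Tgfbr2 and Tgfbr3, and the latent TGF-beta binding proteins Ltbp1, Ltbp2, Ltbp3 and Ltbp4. They were chosen by name, as 10 of the 52545 genes in the table, and all 10 passed the filter on low values that left 18624 genes for testing. Each of the 17 libraries was made from the non-tumorous liver of 1 mouse, a male of strain C57BL/6J at 32 weeks of age. The Regular diet group held 5 mice. The Vehicle Control group held 6 mice that had received diethylnitrosamine (DEN), a liver carcinogen, as a single dose of 100 mg/kg, the choline-deficient high-fat diet CDA-HFD, and weekly intraperitoneal PBS for 16 weeks. The CLDN1 mAb group held 6 mice with the same DEN and CDA-HFD, given 500 µg of a monoclonal antibody against claudin-1 in place of PBS on the same schedule. DEN, CDA-HFD and the injections came together, so their parts in a difference from Regular diet cannot be told apart. The Regular diet libraries also have a run of library codes of their own in the labels (31 to 35). Its part cannot be told apart from that of the group either. The comparisons asked how the DEN and CDA-HFD livers differed from Regular diet livers, and how the antibody changed them.

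TGF-beta is made as a precursor that is cut into the active dimer and a propeptide, and the propeptide stays wrapped around the dimer and keeps it latent. In most cells the latent complex is tied to a latent TGF-beta binding protein, which anchors it on fibrillin and fibronectin fibres until integrins, proteases or other activators release the ligand. Free ligand is bound by the type II receptor Tgfbr2, which phosphorylates the type I receptor Tgfbr1, and this receptor passes the signal to Smad2 and Smad3, while Tgfbr3 (betaglycan) is a co-receptor that presents the ligand. In the liver the pathway is best known for turning hepatic stellate cells into matrix-producing myofibroblasts and for restraining the growth of hepatocytes.

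The promoters of 8 of the 10 genes, with 12 start sites, were in the RefSeq promoter table (build GRCm38.p6), and Tgfb3 and Tgfbr3 had no entry. Only the 250 bases before each start were searched, on both strands, and matches are descriptions of letters. The GC box GGGCGG was in 6 of the 12 windows (in 32.7% of the windows of all 32851 promoters), CCAAT in 5 (33.8% of all) and the SMAD box CAGACA in 3 (17.1% of all). Of the 6 windows with a GC box 3 belong to Ltbp4, and 2 of these share 235 of their bases, so that the GC box was found for 4 of the 8 genes. The TATA box TATAAA was in 1 window (12.4% of all) and the cyclic AMP response element TGACGTCA in 1 (1.55% of all). Neither the AP-1 site TGANTCA (6.75% of all) nor the palindromic SMAD site GTCTAGAC (0.167% of all) was in any of the 12. The following 3 windows are shown because they differ in these elements: Tgfb1 (chr7:25686752-25687001, plus strand) with 5 GC boxes and no TATA box, Tgfb2 (chr1:186705990-186706239, minus strand) with a TATA box at 31 to 26 bases before the start, a CCAAT box and a SMAD box, and Ltbp1 (chr17:75005279-75005528, plus strand), the upstream one of its start sites, with 3 CCAAT boxes and the TGACGTCA element at 73 to 66 bases before the start. Capitals mark these matches, and a match on the other strand reads as its reverse complement.
Tgfb1: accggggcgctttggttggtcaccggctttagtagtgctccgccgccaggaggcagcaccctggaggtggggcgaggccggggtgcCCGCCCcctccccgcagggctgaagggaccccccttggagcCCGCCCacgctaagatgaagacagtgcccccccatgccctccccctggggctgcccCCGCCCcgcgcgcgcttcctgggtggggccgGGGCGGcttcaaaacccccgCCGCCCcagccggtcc
Tgfb2: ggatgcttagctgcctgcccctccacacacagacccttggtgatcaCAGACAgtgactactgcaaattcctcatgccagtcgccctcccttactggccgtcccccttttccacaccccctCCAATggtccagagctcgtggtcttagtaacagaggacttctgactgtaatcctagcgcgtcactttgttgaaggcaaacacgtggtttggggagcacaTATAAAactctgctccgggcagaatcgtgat
Ltbp1: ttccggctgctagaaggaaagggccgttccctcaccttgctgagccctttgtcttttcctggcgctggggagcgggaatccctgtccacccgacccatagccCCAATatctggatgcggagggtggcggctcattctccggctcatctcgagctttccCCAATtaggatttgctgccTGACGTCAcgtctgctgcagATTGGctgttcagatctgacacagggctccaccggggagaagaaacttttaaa
Of these elements, the windows of Tgfb1 and Tgfb2 share none. An exon of Gm29491, on the opposite strand, covers 167 bases of the Tgfb2 window.

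The libraries held an estimated 27.7 to 59.5 M fragments, and the deposited totals ran from 29.7 to 74.6 M. Regular diet replicate 1 stood apart with the total of 74.6 M, against 48.2 to 51.2 M in the other Regular diet libraries. Vehicle Control replicates 3, 4 and 6 had the 3 lowest totals (29.7 to 31.3 M) and were the most deeply sequenced of their group. Hepatocyte markers were high in every library, with summed levels of 0.328 to 3.28 M normalized counts over 9 genes, although Alb, which encodes albumin, had a listed value of 0 in each of the 17. Where leaving out Regular diet replicate 1 or Vehicle Control replicate 1 changed a call or a sign, or moved a value by over 1.5 times, the value without it is given.

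**Figure D1:**
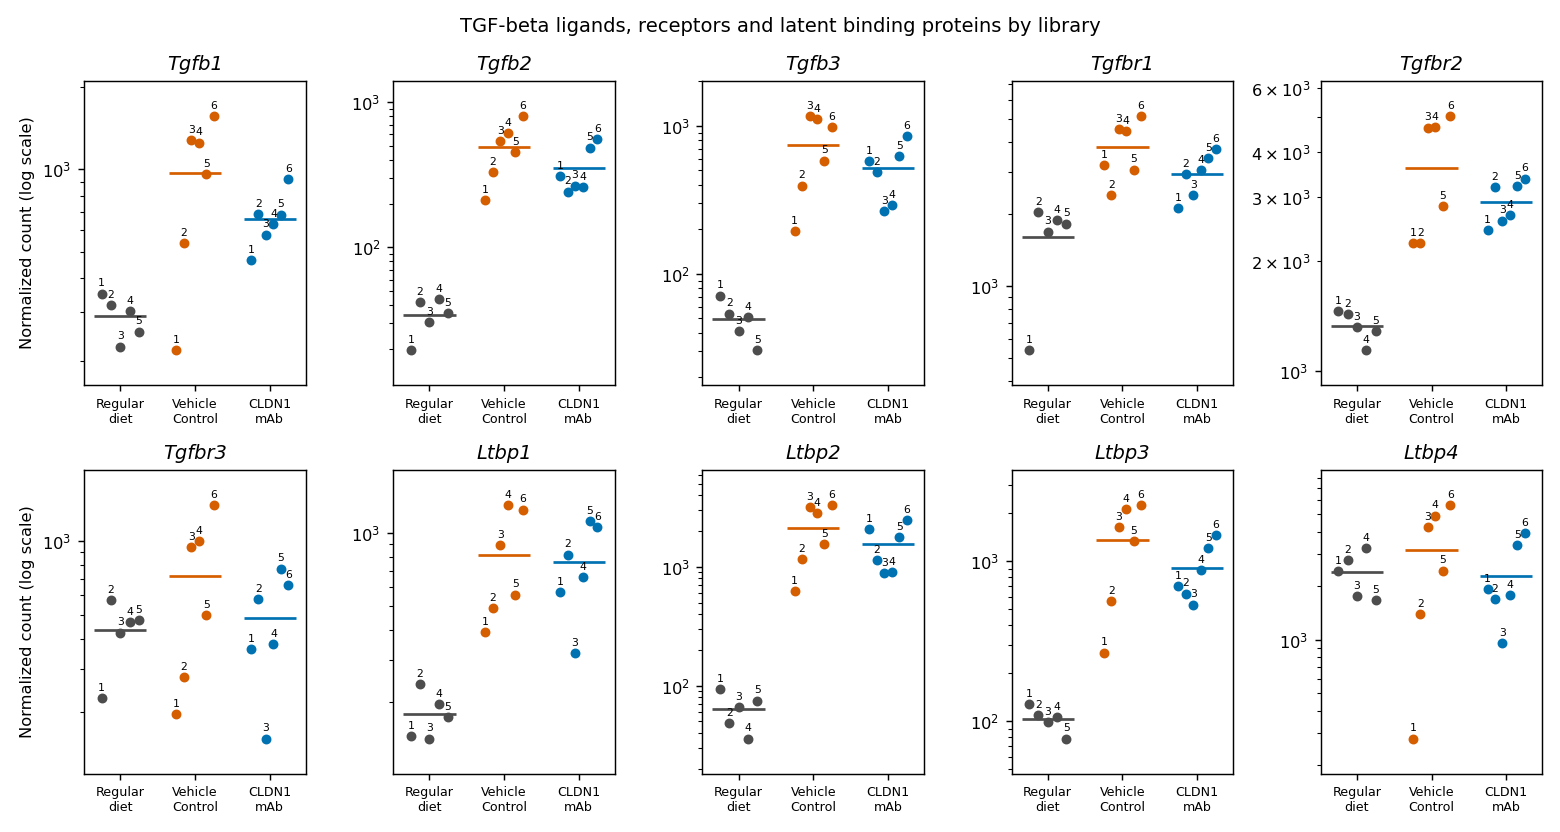
Normalized counts on log axes for the 10 genes, 1 point per library labelled with its replicate number, and a line at the group mean (5 Regular diet, 6 Vehicle Control and 6 CLDN1 mAb libraries). Tgfb2, Tgfb3, Tgfbr1, Tgfbr2, Ltbp1, Ltbp2 and Ltbp3 are higher in all libraries of both DEN and CDA-HFD groups than in any Regular diet library. Tgfbr3 and Ltbp4 overlap with Regular diet in both groups, and Tgfb1 in Vehicle Control only.

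Against Regular diet, the Vehicle Control livers had higher levels of all 3 ligands, of the signalling receptors Tgfbr1 and Tgfbr2, and of Ltbp1, Ltbp2 and Ltbp3. Tgfbr3 and Ltbp4 did not pass the test. The called count was 8 of 10 higher and 0 lower, where 29.8% of all genes tested were called higher and 20.7% lower (50.5% in either direction). The groups did not overlap for 7 of the 10, where 19.1% of all genes were higher without overlap. The median log2 difference of the 10 genes was 1.77, beside 0.04 over all genes tested. Adjusted p-values come from limma-trend on log2(value + 1), corrected by the Benjamini-Hochberg method for the 18624 genes. Log2 differences carry their SE, and a p-value here reflects the spread among the mice of this study. In bulk liver, more cells of a type and more RNA per cell cannot be told apart.

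Tgfb2 (chr1:186622792-186705989, minus strand, protein coding) encodes the ligand that depends most on betaglycan to reach Tgfbr2. Its normalized counts in the Regular diet libraries were 19.7, 42, 30.6, 44 and 35.1, resting on 8 to 35 fragments. In the Vehicle Control libraries they were 212, 329.5, 538, 608, 454 and 800.5. The lowest Vehicle Control library was thus well above the highest Regular diet library. The log2 difference was 3.73 ± 0.32 (n = 6 against 5, adjusted p = 6.09e-08 in limma), and 3.14% of all genes tested had a larger one. Gm29491, on the opposite strand, shares 2.14% of the exon bases of Tgfb2, and a part of its reads could be those of that gene.

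Tgfb3 (chr12:86056745-86079041, minus strand, protein coding), a ligand best known from palate and lung development, read 71.2, 53.8, 41.1, 50.9 and 30.6 in Regular diet. The Vehicle Control libraries ran from 194 through a median of 777 to 1162. Every Vehicle Control value lay above the Regular diet range, with a log2 difference of 3.67 ± 0.42 (adjusted p = 1.52e-06 in limma). Genes on the opposite strand share 7.60% (Gm48008) and 4.82% (Gm37804) of the exon bases of Tgfb3, and with no strand setting stated, a part of its reads could be theirs.

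Tgfb1 (chr7:25687002-25705077, plus strand, protein coding), the main fibrogenic ligand of the liver, read 351, 319, 225, 303 and 255 in Regular diet. In Vehicle Control it read 219, 536, 1275, 1251, 958 and 1565. Vehicle Control replicate 1 lay below every Regular diet library and the other 5 lay above all of them. The log2 difference was 1.49 ± 0.38 (adjusted p = 0.0031 in limma), and 1.87 without Vehicle Control replicate 1 (adjusted p = 8.25e-06). On this scale Tgfb1 differed by less than Tgfb2 or Tgfb3, and 19.0% of all genes tested had a larger difference.

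Among the receptors, Tgfbr2 (chr9:116084293-116175360, minus strand), the ligand-binding type II receptor, varied least in Regular diet, at 1459, 1430.5, 1317, 1142 and 1285. In Vehicle Control its lowest, median and highest values were 2241, 3751 and 5015, with no overlap. The log2 difference was 1.36 ± 0.21 (adjusted p = 3.34e-05 in limma). Tgfbr1 (chr4:47353222-47414931, plus strand), the type I receptor kinase also called ALK5, read 540.5 in Regular diet replicate 1 and 2041, 1688, 1877 and 1823 in the other 4. In Vehicle Control it ran from 2401 through 3813 to 5120.2, again without overlap. Its log2 difference was 1.34 ± 0.30 (adjusted p = 0.00109 in limma) and 0.98 without Regular diet replicate 1 (adjusted p = 0.000534).

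Tgfbr3 (chr5:107106570-107289629, minus strand), betaglycan, read 228, 576, 423, 468 and 477 in Regular diet. In Vehicle Control it read 196, 278, 945, 1002, 497 and 1406, so that 2 libraries lay in or below the lower part of the Regular diet range and 3 lay above all of it. The log2 difference was 0.47, with a 95% interval from -0.55 to 1.49 (adjusted p = 0.446 in limma). The interval is wide enough to hold both a fall and a rise as large as that of Tgfbr2. The log2 difference was 0.25 without Regular diet replicate 1 (adjusted p = 0.69 in limma) and 0.78 without Vehicle Control replicate 1 (adjusted p = 0.159). Gm43422, on the same strand, shares 4.54% of the exon bases of Tgfbr3, so that its value is uncertain by the reads of that gene.

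Of the latency proteins, Ltbp2 (chr12:84783212-84876532, minus strand) had the largest difference of the 10 genes. Ltbp2 is a matrix protein of elastic fibres and, unlike its relatives, is known not to bind latent TGF-beta. It read 93.4, 48.6, 65.6, 35.8 and 74.9 in Regular diet and 630.1, 1170.3, 3182, 2823, 1559 and 3338 in Vehicle Control. The lowest Vehicle Control library was several times the highest Regular diet library. The log2 difference was 4.88 ± 0.41 (adjusted p = 4.36e-08 in limma), exceeded by 0.886% of all genes tested. D030025P21Rik, on the opposite strand, shares 9.34% of the exon bases of Ltbp2, so that its value is uncertain by the reads of that gene.

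Ltbp3 (chr19:5740904-5758532, plus strand), a carrier of latent TGF-beta known from bone and lung, read 128, 109, 98.9, 106 and 77.9 in Regular diet. In Vehicle Control it read 269, 564, 1639, 2109, 1334 and 2251. All 6 values lay above the Regular diet range, with a log2 difference of 3.38 ± 0.45 (adjusted p = 6.93e-06 in limma). Ltbp1 (chr17:75005568-75392512, plus strand), the first of these carriers to be described, read 145, 238, 142, 197 and 174 in Regular diet. In Vehicle Control its lowest, median and highest values were 389, 726 and 1309.9. The groups did not overlap, and the log2 difference was 2.06 ± 0.35 (adjusted p = 8.56e-05 in limma).

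Ltbp4 (chr7:27305136-27337692, minus strand), which carries latent Tgfb1 and is needed for elastic fibre assembly, was the exception among the latency proteins. It read 2415, 2785, 1739.8, 3255 and 1667 in Regular diet and 279, 1385, 4248, 4917, 2424 and 5655 in Vehicle Control. Thus 2 Vehicle Control libraries lay below the whole Regular diet range, 1 inside it and 3 above it. The arithmetic mean was higher in Vehicle Control (3151 ± 2121 against 2372 ± 679.8, SD), while the log2 difference was -0.07 with a 95% interval from -1.32 to 1.19 (adjusted p = 0.939 in limma). Without Vehicle Control replicate 1 the log2 difference was 0.53 (adjusted p = 0.281). The sign also turned without Vehicle Control replicate 2 (0.07), Regular diet replicate 2 (0.005) or Regular diet replicate 4 (0.06).

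The scaling of the libraries bears on these values. Rescaled to the same total per library, 9369 genes were called higher and 1264 lower against Regular diet, in place of 5547 and 3853, and the median of all genes moved from 0.04 to 0.65. Higher calls were then 88.1% of all calls, in place of 59.0%. With quantile normalization 4447 genes were called higher and 5223 lower, and the median of all genes was -0.13. The rescaled log2 differences were 2.12 for Tgfb1, 4.34 for Tgfb2, 1.96 for Tgfbr1 and 5.50 for Ltbp2, each larger than before. Relative to the median of all genes they were 1.46, 3.68, 1.31 and 4.84. Rescaling shifts all genes of a library alike, so subtracting the median removes nearly all of that shift. These relative values therefore could not show an effect of the rescaling. The same 8 genes were called under both scalings. Ltbp4 lay at -0.09 relative to the median with the rescaled values and at 0.41 with quantile normalization, and neither passed the test.

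**Figure D2:**
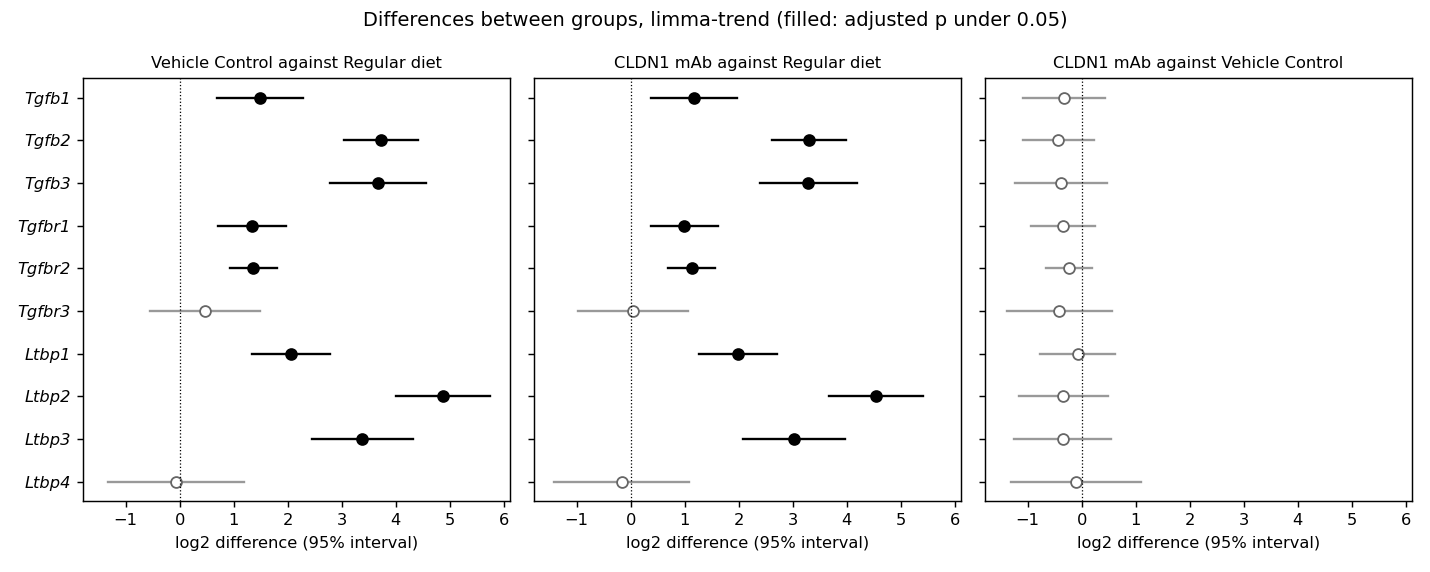
Log2 differences with 95% intervals from limma-trend for the 10 genes in 3 comparisons (n = 6 Vehicle Control, 6 CLDN1 mAb, 5 Regular diet), with filled points for an adjusted p under 0.05. Against Regular diet 8 genes are filled in both panels, and in CLDN1 mAb against Vehicle Control all 10 points lie below 0, between -0.43 and -0.07, with intervals that hold 0.

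The CLDN1 mAb livers were also compared with Regular diet, a comparison that shares libraries with the one above. The same 8 genes were called higher and 0 lower, where 24.8% of all genes tested were called higher and 14.1% lower (38.9% in either direction), and none of the 8 overlapped with Regular diet (18.6% of all genes were higher without overlap). Ltbp2 was the highest by log2 difference (4.54 ± 0.41, adjusted p = 1.46e-07 in limma), then Tgfb2 (3.30 ± 0.32), Tgfb3 (3.29 ± 0.42) and Ltbp3 (3.03 ± 0.45). Ltbp1 differed by 1.99 ± 0.35, Tgfbr2 by 1.13 ± 0.21 and Tgfb1 by 1.17 ± 0.38 (adjusted p = 0.0202 in limma for Tgfb1).

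Tgfb1 lost its call in this comparison without Regular diet replicate 3 (log2 difference 1.08, adjusted p = 0.0508 in limma) and with quantile normalization (0.80, adjusted p = 0.0849). Tgfbr1 differed by 0.99 ± 0.30 (adjusted p = 0.0128 in limma) and by 0.64 without Regular diet replicate 1 (adjusted p = 0.0146). Tgfbr3 differed by 0.05 with a 95% interval from -0.97 to 1.07, and Ltbp4 by -0.17 with an interval from -1.42 to 1.09, and neither passed the test. Without Regular diet replicate 1 Tgfbr3 was at -0.17 (adjusted p = 0.807 in limma). The scaling moved the calls over all genes here too. Rescaled to the same total per library, 7063 genes were called higher and 831 lower in this comparison, in place of 4613 and 2634. Tgfb1 was then at 1.61 and Tgfbr1 at 1.43. Relative to the median of all genes, which removes nearly all of the shift from rescaling, they were at 1.17 and 1.00. With quantile normalization 3553 genes were called higher and 3725 lower, and relative to the median Tgfb1 was at 0.92 and Tgfbr1 at 1.19.

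Between CLDN1 mAb and Vehicle Control, none of the 10 genes passed the test. Over all 18624 genes limma also called none (0%), and 1391 genes (7.47%) had an unadjusted p under 0.05, of which none was among the 10. All 10 log2 differences were below 0, as were 55.7% of those of all genes tested, with a median of -0.34 beside -0.05 over all genes. The groups overlapped for every one of the 10. The CLDN1 mAb values lay inside or close to the span of the Vehicle Control values, and below the 3 highest Vehicle Control libraries for every gene but Tgfb2 and Ltbp1.

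Tgfb1 in the CLDN1 mAb libraries read 466.4, 687, 577, 629.8, 683 and 920.5, all below the Vehicle Control values of replicates 3, 4, 5 and 6. Its log2 difference was -0.32 with a 95% interval from -1.08 to 0.43 (adjusted p = 0.807 in limma). Tgfb2 read 309, 242, 266, 259, 485 and 554, with a log2 difference of -0.43 and an interval from -1.08 to 0.22 (adjusted p = 0.719), the lowest of the 10. Tgfb3 read 579.5, 487, 264, 292, 622 and 847, a log2 difference of -0.38 with an interval from -1.23 to 0.47.

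For the receptors the lowest, median and highest CLDN1 mAb values were 2119, 2985 and 3721 for Tgfbr1, a log2 difference of -0.34 with an interval from -0.94 to 0.25. Those of Tgfbr2 were 2433, 2938 and 3376, and its log2 difference was -0.24 with the narrowest interval of the 10, from -0.65 to 0.18. Those of Tgfbr3 were 156, 481 and 772, and its log2 difference was -0.42 with an interval from -1.39 to 0.55. Between Vehicle Control and Regular diet, Tgfbr1 differed by 1.34, with an interval from 0.71 to 1.96. Tgfbr2 differed by 1.36 there, with an interval from 0.93 to 1.80. For Tgfbr2 the lower end of -0.65 is nearer to 0 than any size in that interval. For Tgfbr1 the lower end of -0.94 has a size inside that interval, and without Regular diet replicate 1 the difference was 0.98. Both comparisons share the Vehicle Control libraries, and these sizes were not tested against each other.

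For the latency proteins, the log2 difference between CLDN1 mAb and Vehicle Control was -0.34 for Ltbp2 (interval from -1.17 to 0.49), -0.35 for Ltbp3 (from -1.25 to 0.55), -0.07 for Ltbp1 (from -0.76 to 0.62) and -0.10 for Ltbp4 (from -1.30 to 1.10). Ltbp2 read 2093, 1136, 884, 904, 1793 and 2473 in the CLDN1 mAb libraries, and Ltbp4 read 1919, 1681, 957, 1776, 3362 and 3938. Replicates 5 and 6 were high and replicate 3 low in both genes. Ltbp1 was at 0.10 without Vehicle Control replicate 4 and Ltbp4 at 0.17 without replicate 6, so the sign of these small differences rested on single libraries.

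Without Vehicle Control replicate 1, the difference between CLDN1 mAb and Vehicle Control was -0.70 for Tgfb1 (adjusted p = 0.21 in limma), -0.75 for Ltbp3 (0.264), -0.65 for Tgfb2 (0.265), -0.72 for Tgfb3 (0.296), -0.64 for Ltbp2 (0.345), -0.36 for Tgfbr2 (0.341), -0.73 for Tgfbr3 (0.383), -0.25 for Ltbp1 (0.719) and -0.70 for Ltbp4 (0.353), and none of the 10 was called. The library codes in the labels ran from 25 to 30 and from 36 to 42 in these groups, with 3 libraries of each group in each run. Within codes 25 to 30 the log2 difference of Tgfb1 was 0.10 and that of Ltbp4 0.30. Within codes 36 to 42 they were -0.75 (adjusted p = 0.306) and -0.51, and none of the 10 was called within either run. The Regular diet libraries have codes 31 to 35, a run that holds no library of the other groups. Codes and group thus coincide in both comparisons with Regular diet, and no fit could separate them. The labels do not say what the codes stand for.

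The levels of the 10 genes were spread widely over the Vehicle Control mice. Their median coefficient of variation (SD as a percentage of the mean) was 28.6% in Regular diet, 53.2% in Vehicle Control and 40.3% in CLDN1 mAb, beside 33.7%, 29.7% and 22.7% over all genes tested. Replicates 3, 4 and 6 were the 3 highest Vehicle Control libraries for 10 of 10 genes. Rescaling to the same total could not change this, since these libraries had the 3 lowest totals. Replicate 1 was the lowest for 9 of 10 and replicate 2 for Tgfbr1. The Vehicle Control span of Ltbp4 was 20.2-fold, from 279 to 5655, that of Ltbp3 8.37-fold, and those of Tgfb1 and Tgfbr3 7.16-fold each. The spans rested in part on replicate 1. Without it the spans were 4.08-fold for Ltbp4, 3.99-fold for Ltbp3, 2.92-fold for Tgfb1 and 5.07-fold for Tgfbr3, now the widest of the 10, and the median coefficient of variation was 40.5%. In CLDN1 mAb, replicate 6 was the highest for 8 genes and replicate 5 for 2, while replicate 3 was the lowest for 6.

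Summed cell type markers moved with this order in the Vehicle Control libraries. The 10 hepatic stellate cell markers summed to 7835 normalized counts in replicate 1, the lowest, and 31605 in replicate 6, the highest. The 8 macrophage markers ran from 24682 in replicate 1 to 167513 in replicate 6, and the 9 endothelial markers from 5715 to 25469 in the same libraries. The 9 myofibroblast markers ran from 6072 in replicate 1 to 32016 in replicate 3, and the 7 cholangiocyte markers from 45617 to 101415 in the same libraries. Hepatocyte markers ran the other way, from 0.328 M in replicate 6 to 1.197 M in replicate 2. In CLDN1 mAb, where replicates 6 and 5 were the highest for the 10 genes, the myofibroblast sum was highest in replicates 5 and 6. The stellate cell, macrophage and endothelial sums were highest in replicate 2 there, and the cholangiocyte sum in replicate 1. The stellate cell, myofibroblast and endothelial sums were lowest in replicate 3, which was also the lowest for 6 of the 10 genes.

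These lists were also compared between groups. Against Regular diet, Vehicle Control had 8 of 9 myofibroblast, 7 of 8 macrophage and 7 of 7 cholangiocyte markers called higher, and 7 of the 8 tested hepatocyte markers called lower. Of the stellate cell markers 3 of 10 were called higher and 1 lower, and of the endothelial markers 1 of 9 higher and 3 lower. Over all genes tested 29.8% were called higher and 20.7% lower. The share of stellate cell markers called higher was thus that of all genes. The markers of Kupffer cells, the resident macrophages of the liver, went against the macrophage list, with 4 of 6 called lower (median log2 difference -1.91). Of the T cell markers 4 of 5 and of the tested neutrophil markers 3 of 3 were called higher. The summed macrophage level was 2794 to 8012 in Regular diet, 24682 to 167513 in Vehicle Control and 40864 to 79760 in CLDN1 mAb. The myofibroblast sum was 1265 to 2714, 6072 to 32016 and 5736 to 22528 in the same groups. The Kupffer cell sum was 7632 to 21655, 4981 to 11583 and 3973 to 12404. Of the markers of these lists, only Alb was at 0 in every library. The part of these cell types in the levels of the 10 genes was not tested.

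**Figure D3:**
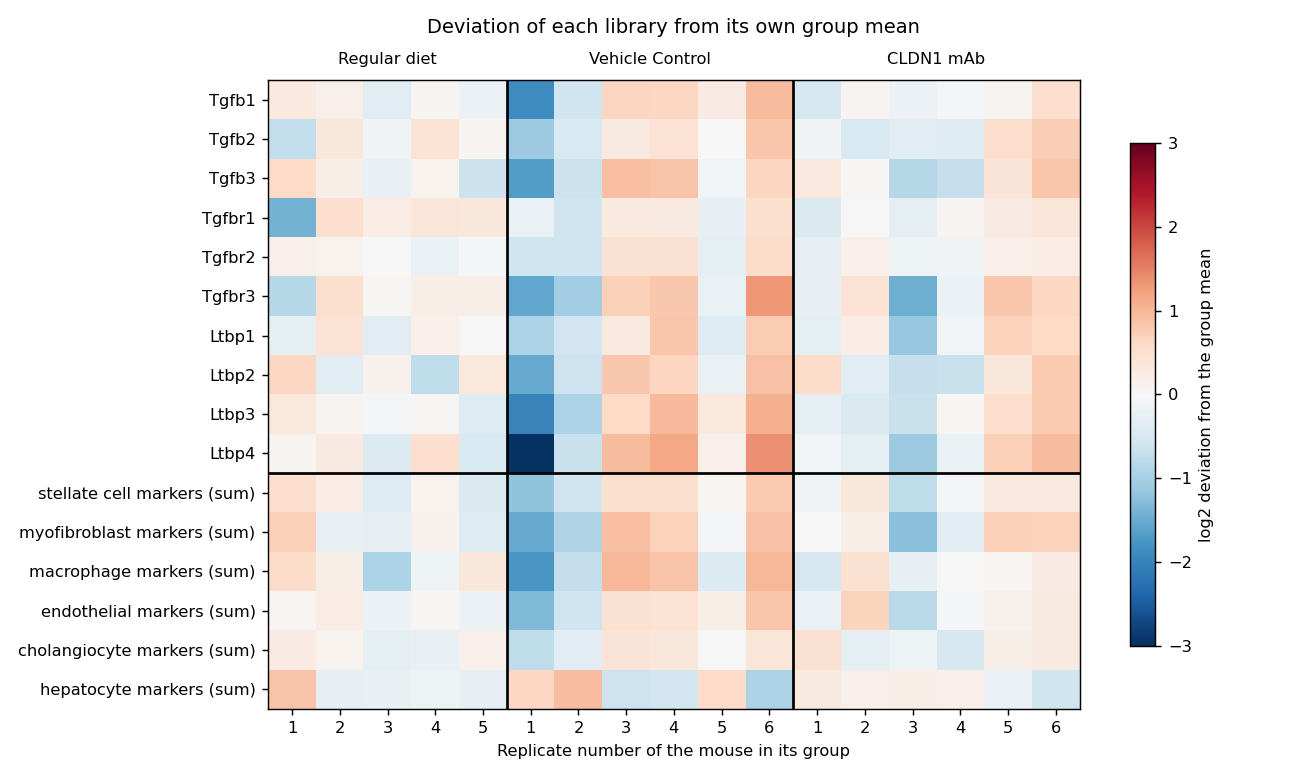
Log2 deviation of each library from the mean of its own group, for the 10 genes and for 6 summed marker lists (red above and blue below the group mean), with the libraries of the 3 groups in columns. In Vehicle Control, replicates 1 and 2 are blue and replicates 3, 4 and 6 red for most genes and for the non-hepatocyte lists, and hepatocyte markers have the opposite colours.

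To compare levels between genes, the normalized counts were divided by the length of all exons in kilobases (kb), and the order depends in part on that choice of length. In Regular diet the order was Ltbp4 (367 ± 105 per kb, SD, n = 5), Tgfbr1 (244 ± 92.2), Tgfbr2 (162 ± 15.5), Tgfbr3 (66.4 ± 19.6), Tgfb1 (57.6 ± 10.02), Ltbp1 (16.7 ± 3.72), Tgfb3 (14.6 ± 4.49), Ltbp3 (11.5 ± 1.99), Ltbp2 (7.78 ± 2.74) and Tgfb2 (5.92 ± 1.69). Only Tgfbr2 over Tgfbr3, and Tgfb1 over Ltbp1, were neighbours whose ranges did not overlap. The order in Vehicle Control ran from Tgfbr1 (579.5 ± 161) and Ltbp4 (488 ± 328) through Tgfbr2 (441 ± 159.5), Ltbp2 (259 ± 139.8), Tgfb3 (218 ± 119), Tgfb1 (192 ± 100.3), Ltbp3 (150.1 ± 89.0) and Tgfbr3 (110.1 ± 72.3) to Tgfb2 (84.7 ± 36) and Ltbp1 (76.3 ± 37.3). All neighbours overlapped there. In CLDN1 mAb the order was that of Vehicle Control except that Tgfbr2 (356 ± 48.2) stood above Ltbp4 (352 ± 175) and Ltbp1 (70.9 ± 28.5) above Tgfb2 (60.9 ± 23.0). Per kb of the longest transcript, Tgfb1, with 5042 bases in all exons and 2573 in that transcript, came next after Ltbp4, Tgfbr1 and Tgfbr2 in every group. In Vehicle Control it then read 376 ± 197, above Ltbp2 (313 ± 169), Ltbp3 (238 ± 141) and Tgfb3 (218 ± 119), and 40 of the 45 pairs of genes kept their order.

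The make-up of the ligands and of the latency proteins differed between Regular diet and the other groups. Among the receptors, the shares of Tgfbr1 and Tgfbr2 overlapped between the groups. Tgfb1 made up 73.7% ± 1.99 (SD, n = 5) of the summed ligand level per kb in Regular diet, 38.0% ± 4.23 (n = 6) in Vehicle Control and 39.4% ± 8.17 (n = 6) in CLDN1 mAb. The lowest Regular diet share was 71.9% and the highest of the other 12 libraries 48.8%. Tgfb3 made up 18.5% ± 3.12, 43.3% ± 4.65 and 43.0% ± 8.28 in the same order, and its range overlapped that of Tgfb1 in both DEN and CDA-HFD groups. Which of these ligands had the larger share in those groups turned with the length used. Per kb of the longest transcript, Tgfb1 made up 84.1% ± 1.33 in Regular diet, 53.5% ± 4.53 in Vehicle Control and 54.7% ± 8.37 in CLDN1 mAb, and Tgfb3 10.8% ± 1.89, 31.2% ± 3.90 and 31.04% ± 7.55. The Tgfb1 share was above all Tgfb3 shares in each group by that length, and it was lower in both DEN and CDA-HFD groups than in Regular diet, without overlap, by either length. Per kb of all exons, Tgfb2 made up 7.79% ± 2.37, 18.7% ± 4.57 and 17.6% ± 2.65.

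Ltbp4 made up 90.7% ± 2.03 of the summed latency protein level per kb in Regular diet, 45.6% ± 11.2 in Vehicle Control and 48.3% ± 4.37 in CLDN1 mAb. No share of the other groups was above 53.2%, and the lowest Regular diet share was 88.3%. Per kb of the longest transcript these limits were 49.4% and 85.9%. Ltbp2 went with 2.13% ± 1.02, 29.2% ± 6.62 and 27.1% ± 6.28, and Ltbp3 with 2.94% ± 0.597, 15.5% ± 2.10 and 14.4% ± 2.54. The sum includes Ltbp2, which is known not to bind latent TGF-beta, so its larger share lowers that of Ltbp4. Shares without Ltbp2 were not computed. Among the receptors the shares overlapped for Tgfbr1, at 49.6% ± 12.2, 52.4% ± 5.08 and 51.0% ± 2.61. Regular diet replicate 1 set the order of these means: its share was 27.96%, and without it the Regular diet mean was 55.05% ± 1.83 (n = 4), above those of the other groups and still overlapping both. The shares of Tgfbr2 overlapped too, at 36.5% ± 13.4, 38.8% ± 2.34 and 40.9% ± 3.08 in the same order of groups. Without Regular diet replicate 1 the Regular diet shares of Tgfbr2 reached 33.3%, below the lowest Vehicle Control share of 34.5%. Tgfbr3 made up 13.8% ± 1.33 of the receptor level in Regular diet, 8.84% ± 3.44 in Vehicle Control and 8.11% ± 2.78 in CLDN1 mAb. Its lowest Regular diet share (11.8%) was below the highest of Vehicle Control (13.3%) and above the highest of CLDN1 mAb (11.4%). These shares do not depend on the scaling of a library, since all genes of a library share it, and no test was made of them.

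**Figure D4:**
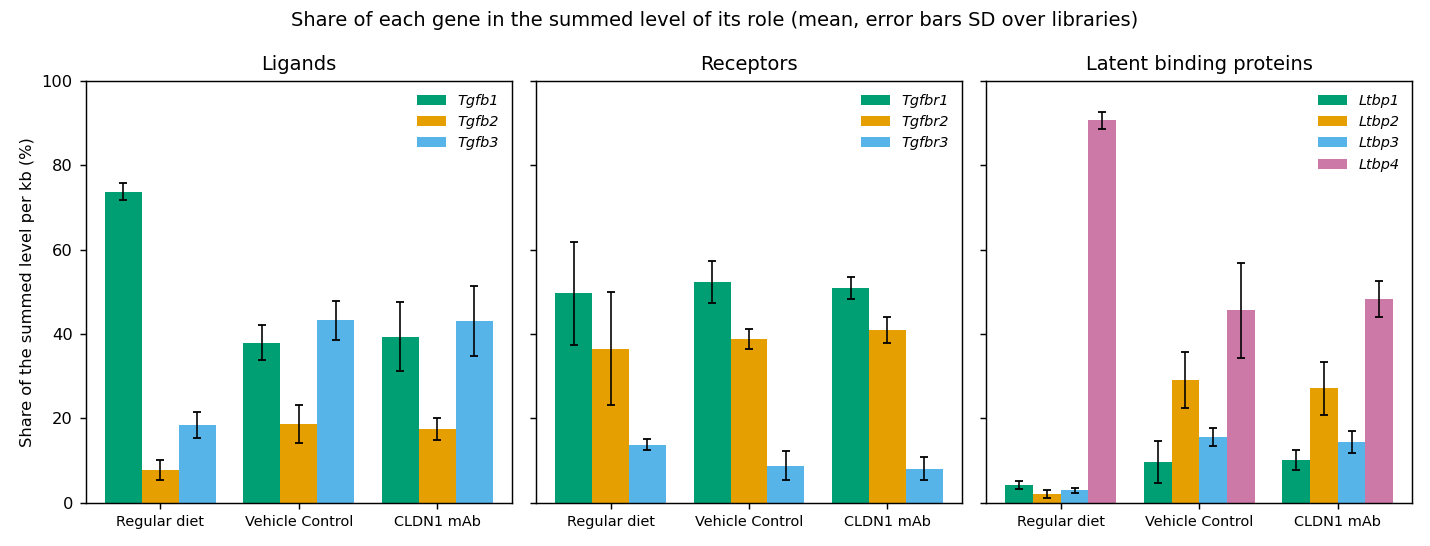
Mean share of each gene in the summed level of its role, per kb of all exons, in percent, for 5 Regular diet, 6 Vehicle Control and 6 CLDN1 mAb libraries (error bars are the SD over libraries). Tgfb1 goes from 73.7% in Regular diet to 38.0% in Vehicle Control and Ltbp4 from 90.7% to 45.6% of a sum that includes Ltbp2. The mean Tgfbr1 share lies between 49.6% and 52.4% (55.05% in Regular diet without replicate 1).

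The rest of the pathway was read from 7 lists with 100 distinct genes, of which 97 were tested (Mstn, Acvr1c and Bmpr1b were below the filter). In Vehicle Control against Regular diet 53 were called higher and 16 lower, with a median log2 difference of 0.89, where 29.8% of all genes tested were called higher and 20.7% lower. Of 18 genes that activate latent TGF-beta 13 were called higher and 3 lower. Plat and Plau, the tissue-type and urokinase-type plasminogen activators, were higher by 5.33 ± 0.38 and 4.03 ± 0.27 on the log2 scale (adjusted p = 7.84e-09 and 3.42e-09 in limma). Itgb6, a chain of an epithelial integrin that activates latent TGF-beta, was higher by 5.06 ± 0.43. The 3 called lower were Pcsk6 (-1.11 ± 0.19) and Furin (-0.95 ± 0.18), proteases that cut precursors, and Plg (-1.57 ± 0.31), the plasminogen that hepatocytes secrete.

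Of 11 matrix partners 9 were called higher and 1 lower. Fbn2, a fibrillin, read 422 ± 210.3 (SD, n = 6) in Vehicle Control and 2.29 ± 1.67 (n = 5) in Regular diet. It passed the filter through the DEN and CDA-HFD libraries. Fmod, a proteoglycan that binds TGF-beta, was higher by 3.0 ± 0.35 and Adamtsl2, a fibrillin-binding protein, by 3.24 ± 0.38. Fn1, plasma and matrix fibronectin and a major hepatocyte product, was lower by -0.87 ± 0.27 (adjusted p = 0.0121 in limma). Of 22 known transcriptional targets 19 were called higher, among them Timp1 (6.21 ± 0.36), Lox (4.35 ± 0.29) and Col1a2 (4.32 ± 0.30), and Nox4, an NADPH oxidase, was called lower (-0.91 ± 0.27).

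Of 18 SMADs and their regulators 5 were called higher, 3 lower and 10 not, with a list median of -0.01, shares close to those of all genes. Pmepa1, a target that dampens SMAD signalling, was higher by 2.2 ± 0.37, Tgif1, a co-repressor, by 0.89 ± 0.17 and Fkbp1a, which binds the type I receptor, by 0.85 ± 0.15. Nedd4l, a ubiquitin ligase of activated SMADs, was lower by -0.63 ± 0.12, Zfyve9, the SMAD anchor SARA, by -0.42 ± 0.16 and Usp15, a deubiquitinase, by -0.37 ± 0.15. Smad2 (-0.10 ± 0.22), Smad3 (0.39 ± 0.30) and Smad4 (-0.05 ± 0.18), the transducers themselves, did not pass the test, and are named for their role after their values were seen.

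Of 6 co-receptors and modulators 3 were called higher and 1 lower. Acvrl1, an endothelial type I receptor, was higher by 1.63 ± 0.33 and Acvr1 by 0.39 ± 0.16, and Nrp1 was lower by -0.43 ± 0.18. Cd109, a membrane protein that binds TGF-beta, read 61.5 ± 61.1 in Vehicle Control and 0.275 ± 0.615 in Regular diet, and also passed the filter through the DEN and CDA-HFD libraries. Of 16 other ligands of the superfamily tested 4 were called higher and 5 lower, with Inha (3.40 ± 0.56), Inhbb (1.87 ± 0.57) and Gdf11 (1.20 ± 0.36) up and Bmp7 (-1.30 ± 0.28), Inhbc (-1.13 ± 0.34) and Gdf15 (-1.78 ± 0.61) down, again with a share of higher calls near that of all genes. Of 8 other receptors tested, which include Acvrl1 and Acvr1 again, 2 were called higher and 2 lower, the lower ones being the activin receptor Acvr2b (-1.45 ± 0.29) and Amhr2 (-1.47 ± 0.45). Rescaled to the same total per library, 3 of the 97 genes were called lower in place of 16.

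**Figure D5:**
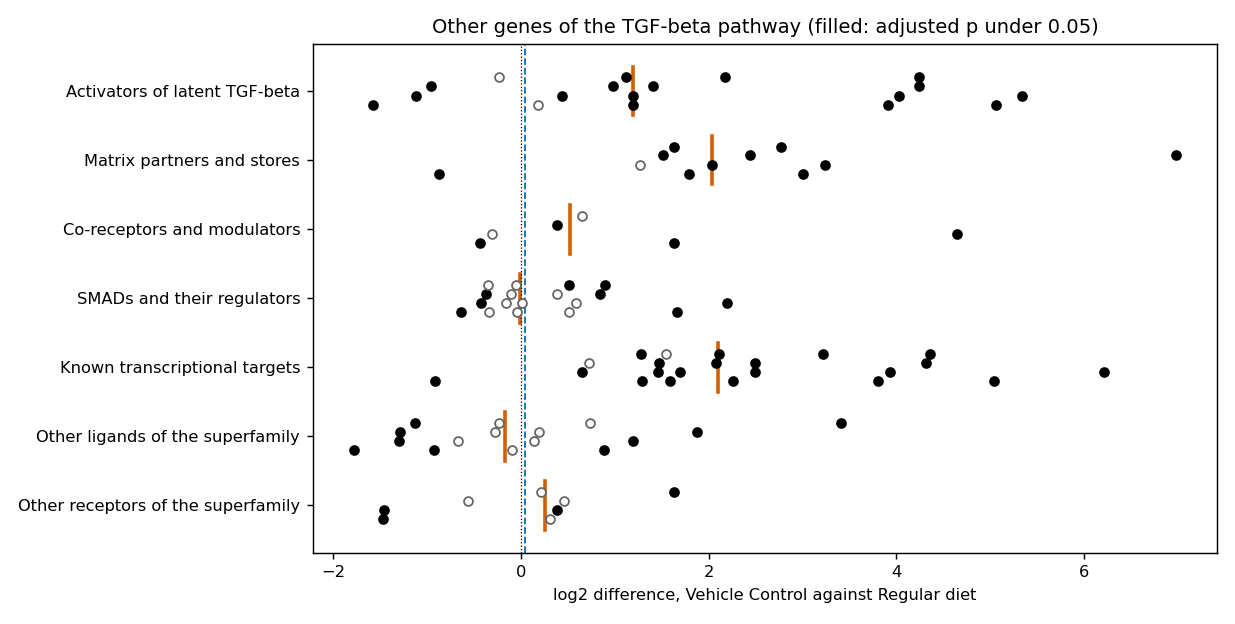
Log2 differences of 97 pathway genes in Vehicle Control (n = 6) against Regular diet (n = 5), 1 point per gene and list, filled for an adjusted p under 0.05, with an orange line at each list's median and a blue dashed line at the median of all genes (0.04). Activators, matrix partners and targets lie mostly to the right, and SMADs and the other ligands and receptors lie around 0.

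Between CLDN1 mAb and Vehicle Control 0 of the 97 pathway genes were called (limma), with a median log2 difference of -0.21 and 73 values below 0. Of the genes with the smallest p-values, Nedd4l differed by -0.42 ± 0.12, Pcsk6 by 0.55 ± 0.18, Cdkn1a, a cell cycle inhibitor, by -0.67 ± 0.22, Acvr2b by 0.80 ± 0.28 and Ccn2, a matrix-associated target, by -1.10 ± 0.39, each with an adjusted p of 0.659 in limma. Furin differed by 0.46 ± 0.17, Smad7, an inhibitory SMAD, by -0.49 ± 0.22, Inhba by -0.68 ± 0.25 and Inhbb by -1.08 ± 0.55. Fn1 differed by 0.44 ± 0.26, Dcn, the proteoglycan decorin, by -0.53 ± 0.38, Acvr1 by -0.22 ± 0.15 and Nrp1 by 0.22 ± 0.17, and none of these passed the test either. Nedd4l read 1788 ± 197 in CLDN1 mAb and 2400.03 ± 290.02 in Vehicle Control, without overlap, as did 0.258% of all genes in this direction. In CLDN1 mAb against Regular diet, 24.8% of all genes tested were called higher and 14.1% lower. Of the 97 pathway genes 43 were called higher and 9 lower in that comparison. Without Regular diet replicate 1, 15 were called lower there.

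The genes most like each member were found from the deviations of the 17 libraries from their group means, each gene scaled to the same spread, as the smallest mean absolute difference over 12584 protein-coding genes. The median gene lay at 0.996 to 1.07. Tgfb1 was closest to Sec14l1 (0.177), Plxnd1 (0.188), a semaphorin receptor of endothelium, and Plaur (0.195), the urokinase receptor. Tgfb2 was closest to Vasn (0.214), a membrane protein that binds TGF-beta, Myzap (0.225) and Bicc1 (0.226). Tgfb3 was closest to Pmepa1 (0.182), Prkar1b (0.201) and the chemokine gene Cx3cl1 (0.207).

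Among the receptors, Tgfbr3 was closest to Prickle2 (0.130) and to Pdgfra (0.133), a receptor of platelet-derived growth factor on mesenchymal cells, then Chst15 (0.164). Tgfbr2 was closest to Galc (0.236), Slamf7 (0.237) and Slc29a3 (0.240). Tgfbr1 was closest to Creb1 (0.110), Abl2 (0.114) and Mtr (0.118), and its nearest other member, Tgfbr3, was only at rank 2469. Regular diet replicate 1, in which Tgfbr1 lay far below the rest of its group, may weigh heavily on this ranking. Vehicle Control replicate 1 may likewise weigh on the rankings of other members. Without it the Vehicle Control span was 4.08-fold in place of 20.2-fold for Ltbp4, and 3.99-fold in place of 8.37-fold for Ltbp3. No ranking was repeated without either library. The latency proteins were closest to Ddr2 (0.207), a collagen receptor, for Ltbp1, Anks6 (0.197) for Ltbp2, Hic1 (0.154) and Emilin1 (0.160), an elastic fibre protein, for Ltbp3, and Sox18 (0.137), an endothelial transcription factor, and Cygb (0.153), the stellate cell globin, for Ltbp4. Within the set, Ltbp3 and Ltbp4 were each other's closest member (0.231), and Ltbp1 and Tgfbr3 were too (0.281).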

How the data were processed

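Liver RNA of 17 mice was sequenced. Values were a signal for each gene in each library, that is counts the authors had normalized with cuffnorm, as the deposited table is labelled. The submitters' processing notes name Cufflinks 2.2.1 and mm10. Aligner, annotation, strand and scaling option are not given in the sources used here. Low values were whole multiples of 1 step in 97.8 to 98.3% of cases per library (within 0.05 of a step, up to 20 steps), and total over step gave the estimated fragments. As not all values were whole, no count model was used.

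Genes at 10 or more in at least 5 libraries (18624) were fitted as log2(value + 1), which understates the change of low genes, with limma-trend (limma 3.58.1, R 4.3.3) on all 17 libraries with group as the term, in two-sided tests at 0.05 after Benjamini-Hochberg correction for all 18624 genes. The fit was tested on simulated data. Groups came from the sample titles. Coordinates, exon lengths and overlaps came from GENCODE M21 (GRCm38), and symbols were found for 52398 of 52545 identifiers.

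The members, pathway lists and marker lists were chosen with earlier results of these data known. All 10 members are named. Of each pathway list, up to 3 genes with the smallest p in each direction are named, and for CLDN1 mAb against Vehicle Control those with the smallest p. For each member, up to 3 genes of the most like pattern are named (mean of at least 50, protein coding). Alternatives were another pseudocount (10), no filter, 2 other scalings, fits of 2 groups, a replicate block, library codes, the length of the longest transcript, and each library left out. Shares by that length and spans and shares without a library were added after seeing the data.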

Additional observations from a re-analysis of the deposited data

Results flagged for a closer look

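Of 30 groups of values (10 genes in 3 groups), 1 had a library far from the others, where chance gives about 1 in 20. Tgfbr1 read 540.5 in Regular diet replicate 1, while the other 4 Regular diet libraries read 1688 to 2041. The gap to the nearest was 0.765 of the whole range, above the critical value of 0.71 for 5 samples. The value rests on 220 estimated fragments. The same library had the largest deposited total (74.6 M) and the largest sum of hepatocyte markers (3.28 M normalized counts, against 1.53 to 1.64 M in the other 4), and the part of these in the value was not tested.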

How the results depend on the processing

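The counts of the 10 genes called were 8 higher in Vehicle Control against Regular diet, 0 in CLDN1 mAb against Vehicle Control and 7 to 8 in CLDN1 mAb against Regular diet under every alternative run. Of 750 values of single genes under an alternative, 722 kept direction and side of the threshold. The cause was not tested for any of the changes below, and some of the fits also had fewer libraries.

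With the same total per library, calls over all genes were 9369 higher and 1264 lower in Vehicle Control against Regular diet, and 7063 and 831 in CLDN1 mAb against Regular diet, pathway genes called lower were 3 and 2, and Ltbp4 was at 0.56 and 0.27. With quantile normalization Ltbp4 was at 0.28 and 0.024 in these comparisons, and Tgfbr3 at -0.24 and Tgfb1 at 0.80 in the second. With no filter, 2 genes were called lower in CLDN1 mAb against Vehicle Control. Within library codes 25 to 30, Tgfb1 was at 0.10 and Ltbp4 at 0.30 in that comparison. Without Regular diet replicate 1 and Vehicle Control replicate 1 together, an alternative chosen after seeing the data, Ltbp4 was at 0.55 in Vehicle Control against Regular diet, Tgfbr3 at -0.17 in CLDN1 mAb against Regular diet, and 4445 genes and 18 pathway genes were called lower in the latter.

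Leaving out 1 library at a time, Ltbp4 ran from -0.34 to 0.53 in Vehicle Control against Regular diet, from -0.70 to 0.17 in CLDN1 mAb against Vehicle Control and from -0.36 to 0.051 in CLDN1 mAb against Regular diet. Ltbp1 ran from -0.25 to 0.16 in CLDN1 mAb against Vehicle Control, Tgfbr3 from -0.17 to 0.34 and Tgfb1 from 1.07 to 1.26 in CLDN1 mAb against Regular diet, where pathway genes called lower ran from 6 to 15.

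The replicate numbers of the labels were not taken as pairs: over 16 same-numbered pairs of libraries the correlation of deviations ran from -0.34 to 0.66, 5 were over 0.1, and not every library correlated best with its own number. With a replicate block, 8, 0 and 8 of the 10 genes were called, 5393 genes higher and 3795 lower in Vehicle Control against Regular diet, and Tgfbr3, not called with or without the block, was at -0.14 in CLDN1 mAb against Regular diet. No call of a member changed.

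Depth limits the lowest values most: Tgfb2 in Regular diet rests on 8 to 35 estimated fragments per library.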
